A study of Homo sapiens with 6 samples.

Results

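Genes reported as direct targets of beta-catenin and its TCF/LEF partners were examined across 6 stable populations of lung cancer cells kept in Wnt3a. The set was fixed by name: 34 genes (AXIN2, LGR5, NKD1, NKD2, RNF43, ZNRF3, SP5, BTRC, MYC, CCND1, CCND2, MYCBP, TERT, PPARD, MET, ASCL2, TBX3, CDX1, MITF, MSX1, MSX2, RUNX2, SALL4, LBH, FGF18, FGF9, EDN1, NRCAM, L1CAM, GJA1, NEDD9, TIAM1, ENC1 and TNFRSF19), looked up through probes that carry a single gene symbol. Of these, 33 had such a probe, among 18365 genes of the array. MYCBP, which encodes a MYC-binding protein, had none and was not analysed here. The members were ordered by role into 8 feedback regulators of the pathway, 7 growth targets, 9 lineage transcription factors and cofactors, 3 secreted ligands and 7 genes of the cell surface, adhesion and motility.

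The populations are called HM20 in the labels and derive, per the labels, from A549, an established human lung adenocarcinoma line. The labels do not say how HM20 cells differ from their parent line. Of these, 5 are stable clones named in the labels for 1 secreted Frizzled-related protein each: SFRP1, SFRP2, SFRP3 (gene FRZB), SFRP4 or SFRP5. The last population is mock. Whether each clone expresses its SFRP was not settled by the array probes, as described below. All 6 had been in Wnt3a-containing medium for 24 hours and each was measured on 1 one-colour array, so no difference between 2 arrays has a replicate check, an effect of an SFRP gene cannot be told apart from that of the clone that carries it, and precision is limited by how few arrays there are. Cells without Wnt3a were not analysed here: the values are levels under Wnt3a and not responses to it.

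In the canonical pathway a Wnt ligand that binds Frizzled and LRP receptors stops the destruction of beta-catenin, which then enters the nucleus and activates genes with TCF/LEF sites. Some of these genes encode inhibitors of the pathway itself and form its negative feedback, and others drive proliferation, cell fate, adhesion or movement. SFRPs share the cysteine-rich domain of the Frizzled receptors and are known as extracellular modulators of Wnt signals, and the study's title places them among the factors that shape Wnt-driven stem-like properties of cancer cells.

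The promoter of SP5, a zinc-finger repressor that is itself induced by Wnt, is shown first because SP5 separated the clones more widely than any other feedback regulator. RefSeq promoter windows (GRCh38.p14, 250 bases before to 50 after a transcript start) were held for 20 of the 34 members and were searched on both strands for the TCF motif spelled CTTTGAT or CTTTGAA. At least 1 motif lay in the windows of 4 of these 20 genes (SP5, MITF, FGF18 and EDN1; 20%), and in those of 2281 of all 27305 genes (8.35%). Genes can have several windows: counted by window, 4 of the members' 33 held a motif, and 6.86% of all 35116 did. SP5 held 3 motifs, starting 148, 109 and 84 bases before its start at position 170715337 of chromosome 2. Only 9 of the 27305 genes (0.0330%) held 3 or more. That cut is SP5's own count, and the members were chosen as reported TCF targets, so these shares are descriptions and no support. The windows of MITF and EDN1 that hold a motif are those of 1 of several annotated starts of each gene. The 250 bases before the SP5 start and the stretches around the other motifs are printed 5′ to 3′, with each motif in capitals (its reverse complement where it lies on the other strand). A match is a string of letters and no measured binding.
SP5, chr2:170715087-170715336, plus strand: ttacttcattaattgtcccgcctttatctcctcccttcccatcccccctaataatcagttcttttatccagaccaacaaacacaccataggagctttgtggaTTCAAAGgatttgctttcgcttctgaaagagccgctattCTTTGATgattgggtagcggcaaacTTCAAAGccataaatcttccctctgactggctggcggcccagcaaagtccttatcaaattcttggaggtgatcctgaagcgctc
MITF, chr3:69936358-69936424, plus strand: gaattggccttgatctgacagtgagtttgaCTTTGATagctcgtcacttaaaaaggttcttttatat
FGF18, chr5:171419443-171419509, plus strand: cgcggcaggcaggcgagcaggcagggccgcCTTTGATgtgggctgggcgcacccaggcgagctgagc
EDN1, chr6:12287769-12287835, plus strand: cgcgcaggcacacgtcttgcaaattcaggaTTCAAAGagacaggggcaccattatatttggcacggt

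Signal is given below as the deposited linear intensity, and a difference is always the log2(intensity + 1) value of a clone minus that of mock. For a gene with several probes the one with the highest mean was used. Members whose brightest array reached the table's median intensity of 641.8 were taken as measured, which held for 24 of the 33 and for 11954 genes in all. The remaining 9 (AXIN2, LGR5, ASCL2, TBX3, SALL4, FGF18, FGF9, EDN1 and GJA1) stayed under it on every array. Just outside were SALL4 and TBX3, with a highest intensity of 524 each, and just inside were CDX1 at 712 and RNF43 at 734. The 10th percentile of an array lay between 53.2 and 91.0, and levels near it have no order.

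As a check of the labels, the probes of SFRP2, SFRP4 and SFRP5 read 41.3 to 98.9 on all arrays, near the floor also in the clones named for them, and none of the 5 SFRP probes was 2-fold higher than mock in its own clone. The SFRP1 probe was bright on every array, from 37206 in SFRP4 to 110461 in SFRP3. It read 88063 in its own clone and 58836 in mock, so mock did not lack signal on this probe. The FRZB probe was lowest in its own clone, SFRP3, at 436 against 476 in mock. Where these probes lie within the genes was not known here, so they do not check the clones if they fall outside the transgene. Of 10 epithelial and A549 marker genes, 9 had a probe and 6 were measured. The single probe of NQO1, a quinone reductase known to be abundant in A549, read only 62.3 to 109.6, and EPCAM and ALDH1A1 also stayed under the filter, so these probes did not show the levels the line is known for. Of the 6 measured markers, 4 were at least 2-fold lower than mock in SFRP1 (all measured genes 4.33%), 3 in SFRP2 (3.89%) and 1 in SFRP3 (3.15%). In SFRP4 3 of them were lower (7.51%), and in SFRP5 1 was lower (6.53%) and 1 higher (5.98%). Their median difference was -1.65 (SFRP1), -1.03 (SFRP2), -0.15 (SFRP3), -1.26 (SFRP4) and -0.11 (SFRP5), but single markers ran against it. The keratin KRT7 differed by -2.53 in SFRP3, the keratin KRT8 by 0.08 in SFRP2 and 1.25 in SFRP5, and the adhesion protein CDH1 by -1.09 in SFRP5. Of 6 fibroblast markers 2 were measured, with a median difference of 1.07 in SFRP4, 0.69 in SFRP5 and 0.15 to 0.26 in the other clones. The matrix protein gene LUM was 2-fold higher in SFRP4 (1.32), as were 5.97% of all measured genes, and it passed the filter through that array alone. The collagen gene COL1A1 differed by 0.82 in SFRP4, and COL3A1 lay below the 10th percentile of every array. The summed intensity of the list was 2764 in mock, 2961 to 3342 in SFRP1 to SFRP3, 4854 in SFRP4 and 4049 in SFRP5.

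**Figure D1:**
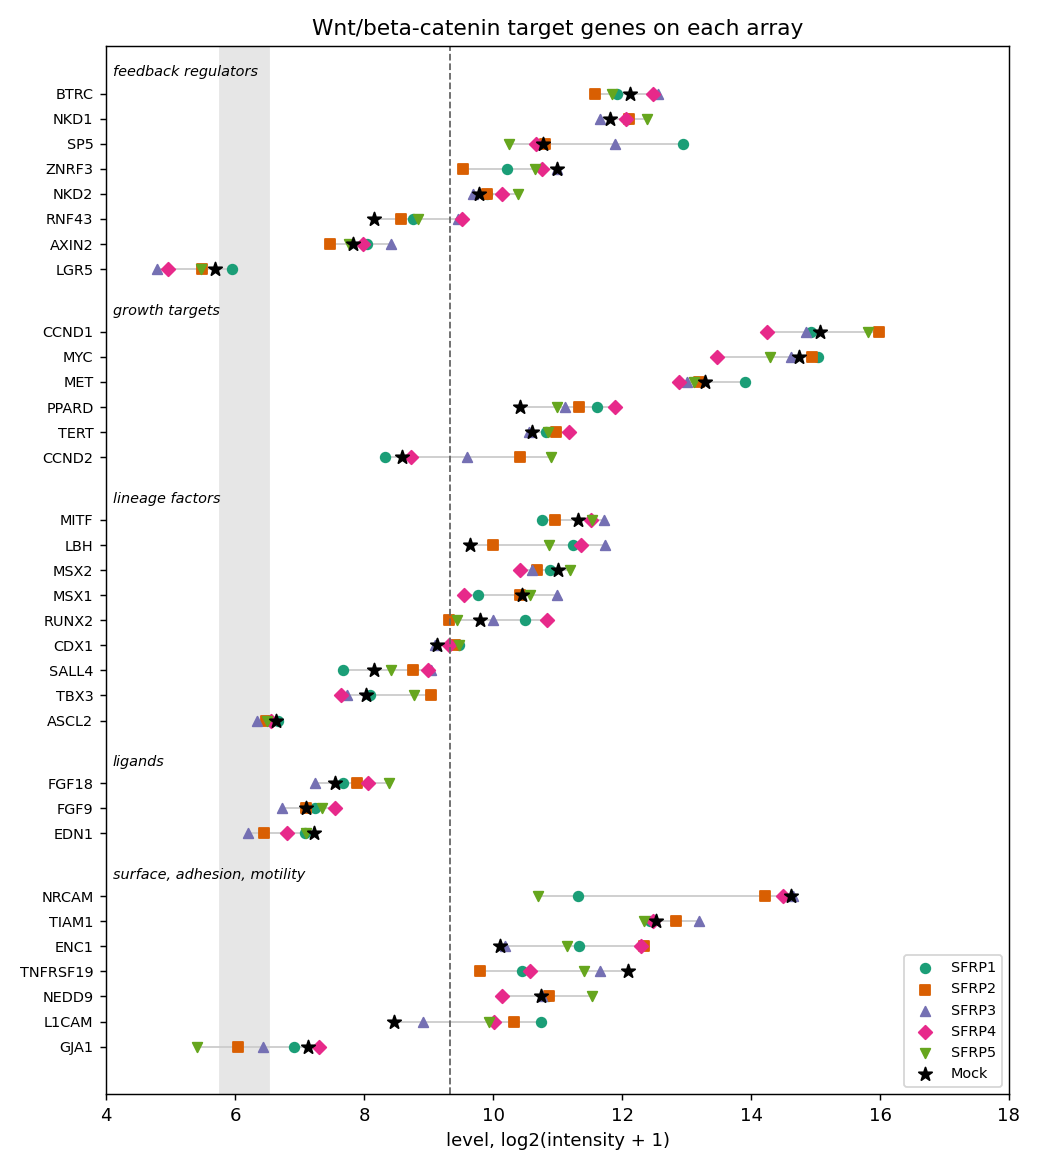
Level of the 33 members with a probe on each of the 6 arrays, as log2(intensity + 1), grouped by role; the black star is mock, the dashed line the table's median and the grey band the range of the arrays' 10th percentiles. Levels of different genes come from different probes and are not comparable with each other. NRCAM spreads the widest, over 3.95 log2 units, and LGR5 lies under the 10th percentile on every array.

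Against mock, 12 of the 24 measured members (50%) lay at least 2-fold away in at least 1 clone, where 29.0% of all genes did. They were the feedback regulators SP5, RNF43 and ZNRF3, the growth targets MYC, CCND2 and PPARD, the lineage genes LBH and RUNX2, and NRCAM, L1CAM, ENC1 and TNFRSF19 of the surface and motility group. The members did not move as a block: each clone had its own combination, and 3 of the 6 measured feedback regulators (NKD1, NKD2 and BTRC) stayed within 2-fold of mock in every clone on their brightest probe. The range over the 6 arrays, which needs no reference array, had a median of 1.46 log2 units over the members and 0.97 over all genes. It reached 2-fold for 16 of the 24 (66.7%), against 47.9% of all genes. These shares are descriptions of genes chosen by name, with earlier results of these data known, and carry no test.

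**Figure D2:**
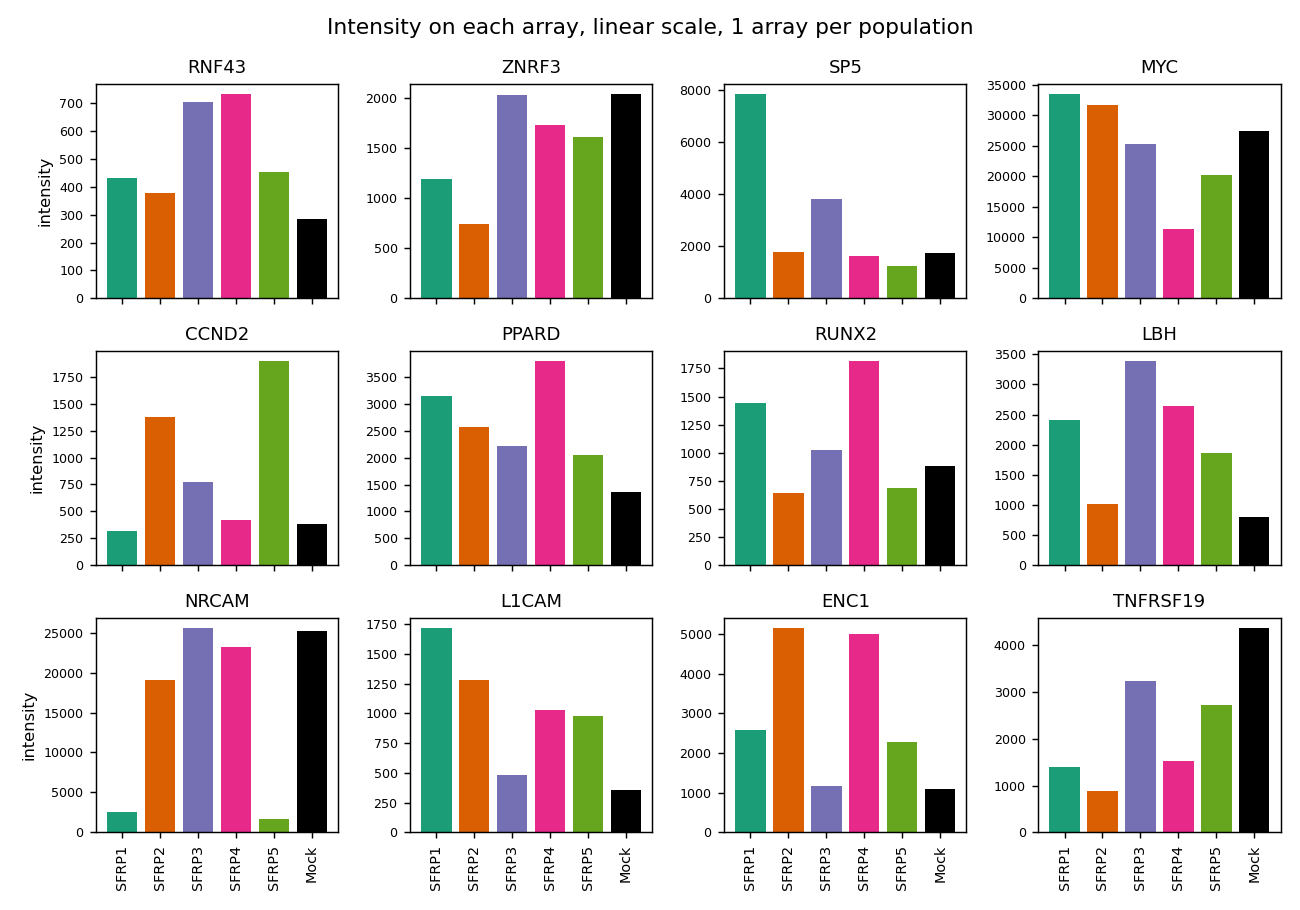
Linear intensity on each array of the 12 members at least 2-fold from mock in some clone; each bar is 1 array and each panel has its own axis from 0. SP5 stands out in the SFRP1 clone, NRCAM is low in SFRP1 and SFRP5, and L1CAM, LBH, PPARD, ENC1 and RNF43 are lowest in mock.

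Among the feedback regulators, SP5 read 7844 (SFRP1), 1793 (SFRP2), 3815 (SFRP3), 1630.2 (SFRP4), 1217 (SFRP5) and 1748 in mock. It was thus high in SFRP1 and SFRP3, while the other clones lay close to mock or, in SFRP5, under it. Its difference was 2.17 in SFRP1 (4.49-fold), 1.13 in SFRP3 and -0.52 in SFRP5, and the range of 2.69 log2 units exceeded that of 96.2% of genes. This is the gene with the 3 TCF motifs shown above, and whether they bear on these differences was not tested.

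RNF43 and ZNRF3 encode related membrane ubiquitin ligases that remove Frizzled receptors from the cell surface. RNF43 read 432, 379, 703, 734 and 455 in SFRP1 to SFRP5 in that order and 285 in mock, so every clone lay above mock and the difference was largest in SFRP4 (1.36) and SFRP3 (1.30). It passed the filter through the SFRP3 and SFRP4 arrays alone. ZNRF3 read 1188, 739.6, 2026, 1727 and 1612 in the clones and 2039 in mock, with every clone below mock and a difference of -1.46 in SFRP2 and -0.78 in SFRP1. The other ZNRF3 probe did not follow: it differed by -0.35 in SFRP2 and by 0.09 in SFRP1, and was highest in SFRP4 (0.51).

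AXIN2, the scaffold of the destruction complex whose gene is the most widely used readout of the pathway, was dim on every array. It read 263 (SFRP1), 176 (SFRP2), 339 (SFRP3), 253 (SFRP4), 216 (SFRP5) and 226 in mock. All clones lay within 2-fold of mock, between -0.36 (SFRP2) and 0.59 (SFRP3). LGR5, a receptor for R-spondins and a stem cell marker, read 26.6 to 60.7, under the 10th percentile of all 6 arrays, so its values have no order. The remaining feedback members stayed close to mock. NKD1 and NKD2, which bind Dishevelled and dampen the signal, differed by -0.15 to 0.57 and by -0.09 to 0.61, each highest in SFRP5 and lowest in SFRP3 on the brightest probe. The other NKD1 probe was dim and lay below the 10th percentile in SFRP5, and with both probes averaged the NKD1 difference was 0.0271 there and highest in SFRP4 (0.27). The dimmer NKD2 probe differed by 1.07 in SFRP4. BTRC, the F-box protein that marks beta-catenin for destruction, differed by -0.54 in SFRP2 to 0.44 in SFRP3, and its other probe had the opposite sign in SFRP5 (0.37).

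Among the growth targets, the D-type cyclins shared their high clones. CCND2 read 320 (SFRP1), 1373 (SFRP2), 776 (SFRP3), 422 (SFRP4), 1898 (SFRP5) and 383 in mock. SFRP5 and SFRP2 were therefore the highest, at differences of 2.30 and 1.84, SFRP3 lay between at 1.01, and SFRP1 and SFRP4 lay near mock; the gene passed the filter through the 3 high clones alone. CCND1, which like CCND2 drives cells from G1 into S phase, read 31362 (SFRP1), 65025 (SFRP2), 29428 (SFRP3), 19352 (SFRP4), 57673 (SFRP5) and 34269 in mock. SFRP2 (0.92) and SFRP5 (0.75) were again the highest and SFRP4 (-0.82) the lowest, but no clone was 2-fold from mock. Over 10 measured proliferation genes, which include mitosis and replication markers, the median difference was 0.13 (SFRP1), -0.18 (SFRP2), -0.32 (SFRP3), 0.04 (SFRP4) and -0.48 (SFRP5). In SFRP5 3 of these genes were at least 2-fold lower (all measured genes 6.53%), and in SFRP1 1 was higher (4.41%). The part of the proliferation genes in the cyclin values was not tested.

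MYC, the transcription factor of growth and ribosome production, read 33520 (SFRP1), 31658 (SFRP2), 25228 (SFRP3), 11354 (SFRP4), 20142 (SFRP5) and 27366 in mock. The SFRP4 clone was the low one, at -1.27, and the other clones lay between -0.44 and 0.29. PPARD, a nuclear receptor for fatty acids, read 3143, 2573, 2222, 3799 and 2044 in SFRP1 to SFRP5 and 1368 in mock. All 5 clones lay above mock, with SFRP4 (1.47) and SFRP1 (1.20) beyond 2-fold, and its dim second probe had the same sign in all 5 clones (0.19 to 1.55). TERT, the catalytic subunit of telomerase, stayed within -0.05 to 0.57. MET, the hepatocyte growth factor receptor, was highest in SFRP1 at 0.63 and otherwise between -0.41 and -0.09, and its other probe differed by 1.26 in SFRP1 and by -0.94 in SFRP5.

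Of the lineage genes, LBH, a transcription cofactor of limb, heart and mammary development, differed the most. It read 2416 (SFRP1), 1019.5 (SFRP2), 3391 (SFRP3), 2633 (SFRP4), 1863 (SFRP5) and 799.7 in mock. Every clone lay above mock, by 2.08 (SFRP3), 1.72 (SFRP4), 1.59 (SFRP1) and 1.22 (SFRP5), and by 0.35 in SFRP2. RUNX2, the master regulator of bone formation, read 1444 (SFRP1), 637.8 (SFRP2), 1027 (SFRP3), 1817 (SFRP4), 690.1 (SFRP5) and 884 in mock. It was 2-fold from mock in SFRP4 alone (1.04), where its other probe differed by 0.42, and the other clones lay on either side of mock.

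The remaining measured lineage genes stayed within 2-fold of mock in every clone. MSX1, a homeobox gene of craniofacial development, differed by -0.91 in SFRP4 to 0.54 in SFRP3. Its relative MSX2 differed by -0.59 in SFRP4 to 0.19 in SFRP5. MITF, the melanocyte regulator whose promoter window holds a motif shown above, differed by -0.57 in SFRP1 to 0.39 in SFRP3 on its brightest probe. Its other probes, all dim, had the opposite sign in SFRP1 (0.37, 0.49 and 0.17). In SFRP3 they differed by 0.36, 0.29 and -0.19. CDX1, an intestinal homeobox gene, differed by -0.03 to 0.35. TBX3, SALL4 and ASCL2, all transcription factors of stem or progenitor cells, were dim. TBX3 read 524 in SFRP2 and 436 in SFRP5 against 259 in mock, the clones in which CCND1 and CCND2 were also highest. ASCL2 read 79.8 to 100.8, near the 10th percentiles of the arrays.

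The secreted ligands gave little signal. The highest FGF18 value was 333 in SFRP5, against 187 in mock, that of FGF9 was 186 in SFRP4, against 135 in mock, and EDN1, the precursor of endothelin, read at most 148, in mock. These growth factor and peptide genes stayed under the filter, so their differences rest on dim readings. Among the dim members TBX3 in SFRP2 (1.01) and EDN1 in SFRP3 (-1.03) lay just past 2-fold from mock. Of all genes with a probe, dim ones included, 8.09% did in SFRP1, 5.72% in SFRP2, 7.34% in SFRP3, 12.3% in SFRP4 and 10.2% in SFRP5. GJA1, the gap junction protein connexin 43, read 139 in mock. Its SFRP2 and SFRP5 readings were under those arrays' 10th percentiles, so no fold is given for these clones.

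As a group, the measured surface and adhesion genes had the widest median range over the arrays, 2.26 log2 units. Among them only NRCAM (3.95) ranged wider than SP5 (2.69) and CCND2 (2.56), and TIAM1 ranged over 0.86. NRCAM, a neuronal cell adhesion molecule of the L1 family, read 2563 (SFRP1), 19124 (SFRP2), 25635 (SFRP3), 23194 (SFRP4), 1659 (SFRP5) and 25271 in mock. SFRP1 and SFRP5 were low, at -3.30 and -3.93, and the other clones lay between -0.40 and 0.02. In fold terms mock was 9.86 times SFRP1 and 15.2 times SFRP5, on the single probe of the gene. In bulk RNA, fewer cells that express a gene and less RNA per cell cannot be told apart.

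L1CAM, the founding member of the same family, which promotes motility at the invasive front of colon tumours, was highest in SFRP1, where NRCAM was low. It read 1721 (SFRP1), 1281 (SFRP2), 480.4 (SFRP3), 1032 (SFRP4), 975 (SFRP5) and 352 in mock. All 5 clones lay above mock, by 2.28 (SFRP1), 1.86 (SFRP2), 1.55 (SFRP4), 1.47 (SFRP5) and 0.45 (SFRP3). The other L1CAM probe gave 2.12, 1.54, 1.25, 1.17 and 0.33 in the same clones. SFRP3 and mock alone stayed under the filter's threshold.

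ENC1, an actin-binding protein of the kelch family, read 2569 (SFRP1), 5156 (SFRP2), 1168 (SFRP3), 4993 (SFRP4), 2268 (SFRP5) and 1097 in mock. SFRP2 (2.23) and SFRP4 (2.19) were the highest and SFRP3 (0.09) lay at mock. The L1CAM and ENC1 differences were smallest in SFRP3. The median of the epithelial markers given above was lowest in SFRP1, SFRP2 and SFRP4, where L1CAM was highest, though KRT8 and KRT7 lay near mock in SFRP2, and the fibroblast markers were highest in SFRP4. Their part in these values was not tested. TNFRSF19, a TNF receptor family member also known as TROY, read 1389 (SFRP1), 892 (SFRP2), 3243 (SFRP3), 1524 (SFRP4), 2732 (SFRP5) and 4377 in mock. All 5 clones lay below mock, at differences of -2.29 (SFRP2), -1.66 (SFRP1), -1.52 (SFRP4), -0.68 (SFRP5) and -0.43 (SFRP3), and the other probe gave -2.32, -1.50, -1.67, -0.52 and -0.50. NEDD9, a scaffold of focal adhesions, differed by -0.60 in SFRP4 to 0.80 in SFRP5 on its brightest probe. Its dim other probe differed by 0.45 in SFRP4 and 0.13 in SFRP5. TIAM1, an activator of the GTPase RAC1, differed by -0.18 in SFRP5 to 0.68 in SFRP3.

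**Figure D3:**
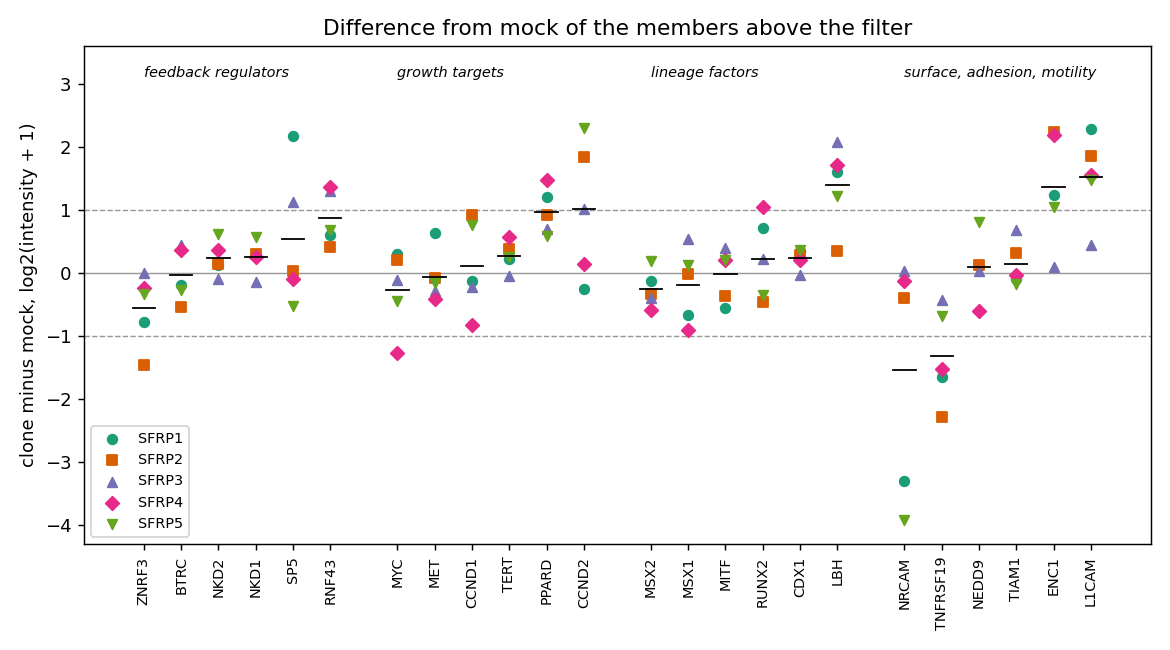
Difference from mock of the 24 measured members in each clone, on the log2(intensity + 1) scale; each symbol is 1 clone, the short line is the mean of the 5 clones and the dashed lines mark 2-fold. LBH, L1CAM, PPARD, ENC1 and RNF43 have all 5 clones above mock, and TNFRSF19 and ZNRF3 all 5 below.

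Further probes were then compared with the brightest probe of each gene, on which the differences had been counted. Of the 29 differences of at least 2-fold (a member in a clone), 9 belonged to genes with another probe above the filter. That probe had the same sign in 9 of 9 and was also at least 2-fold away in 7, all of them of L1CAM and TNFRSF19. The other 2 were ZNRF3 in SFRP2 and RUNX2 in SFRP4. These are pairs chosen for a large difference on the brightest probe. For MET in SFRP1 and NKD2 in SFRP4 the other probe alone passed 2-fold (1.26 and 1.07, against 0.63 and 0.36 on the brightest). Over all 5 clones of the 8 members with another probe above the filter, that probe had the same sign in 28 of 40 cases. It did in 2 of 5 for each of ZNRF3, RUNX2 and TIAM1. The probes of a gene share its array and RNA and are not replicates, and SP5, CCND2, LBH, ENC1 and NRCAM had no such probe.

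**Figure D4:**
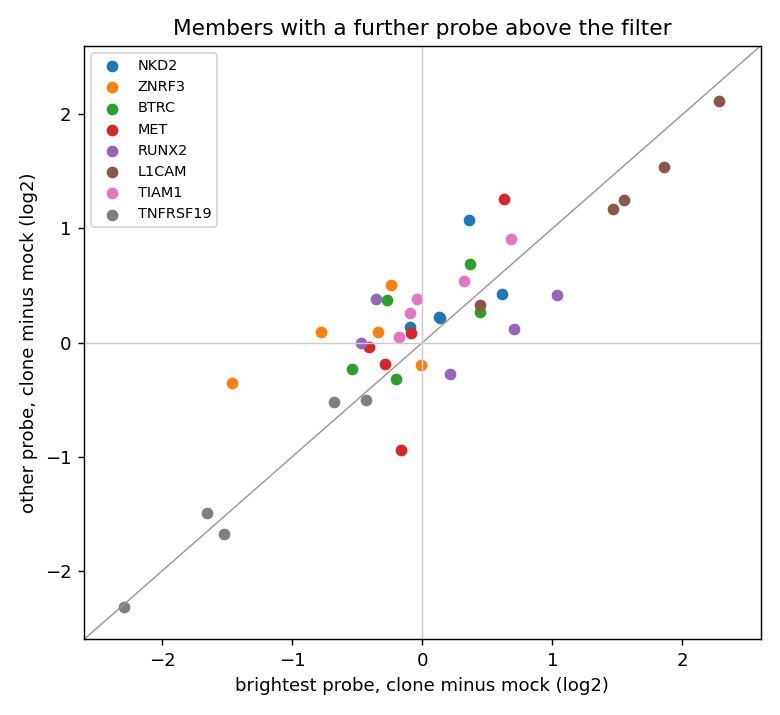
Difference from mock on the brightest probe (horizontal) and on another probe above the filter (vertical) for 8 members, both in log2 units; each point is 1 clone and the line marks equality. L1CAM and TNFRSF19 lie along the line, while ZNRF3 and RUNX2 do not.

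Each clone was then set against mock over the whole set. In the SFRP1 clone 7 of 24 members (29.2%) were at least 2-fold away, against 8.74% of all genes: 5 were higher (background 4.41%) and 2 lower (4.33%). The higher ones were SP5, PPARD, LBH, L1CAM and ENC1, and the lower ones NRCAM and TNFRSF19. In SFRP2 there were 5 members (20.8%, background 6.69%). CCND2, L1CAM and ENC1 were higher (2.80%), and ZNRF3 and TNFRSF19 lower (3.89%).

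In SFRP3 4 members (16.7%, background 6.88%) were at least 2-fold away, namely SP5, RNF43, CCND2 and LBH, all higher (3.73%). None was 2-fold lower there (3.15%). In SFRP4 there were 8 members (33.3%, background 13.5%). RNF43, PPARD, RUNX2, LBH, L1CAM and ENC1 were higher (5.97%), and MYC and TNFRSF19 lower (7.51%). In SFRP5 there were 5 members (20.8%, background 12.5%), with CCND2, LBH, L1CAM and ENC1 higher (5.98%) and NRCAM lower (6.53%). The comparisons share the single mock array, so a low or high mock reading of a gene enters all 5 of them.

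The median difference over the 24 members was 0.17 (SFRP1), 0.17 (SFRP2), 0.06 (SFRP3), 0.17 (SFRP4) and 0.23 (SFRP5). For the 11954 measured genes as a whole it was 0.05, 0.08, 0.03, 0.06 and 0.10 in the same order. Centring each array on its median lowered the median over all genes by 0.05 to 0.21, to -0.07, -0.03, -0.02, -0.06 and -0.11. The members' medians were then 0.0523, 0.0654, 0.00309, 0.0486 and 0.0274.

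Feedback regulators were contrasted with the growth and lineage targets, over 6 and 12 measured genes. The feedback median was 0.21 (SFRP1), 0.09 (SFRP2), 0.22 (SFRP3), 0.30 (SFRP4) and 0.15 (SFRP5). The growth and lineage median was 0.25, 0.25, 0.09, 0.17 and 0.23 in the same clones. Feedback minus growth and lineage median was therefore -0.05 (SFRP1), -0.16 (SFRP2) and -0.08 (SFRP5), and 0.13 in both SFRP3 and SFRP4. Within each group single genes ran much wider, from -1.46 to 2.17 among the feedback genes and from -1.27 to 2.30 among the others. The direction in SFRP1 changed without the filter on dim genes (0.17) and against all members outside the feedback group (0.05). That in SFRP3 changed with a stricter filter (-0.22), so the contrast has no settled direction in those clones. In SFRP2, SFRP4 and SFRP5 the sign held, but the gaps are small beside the spread of single genes. Each rests on 1 array, so no direction is settled there either.

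**Figure D5:**
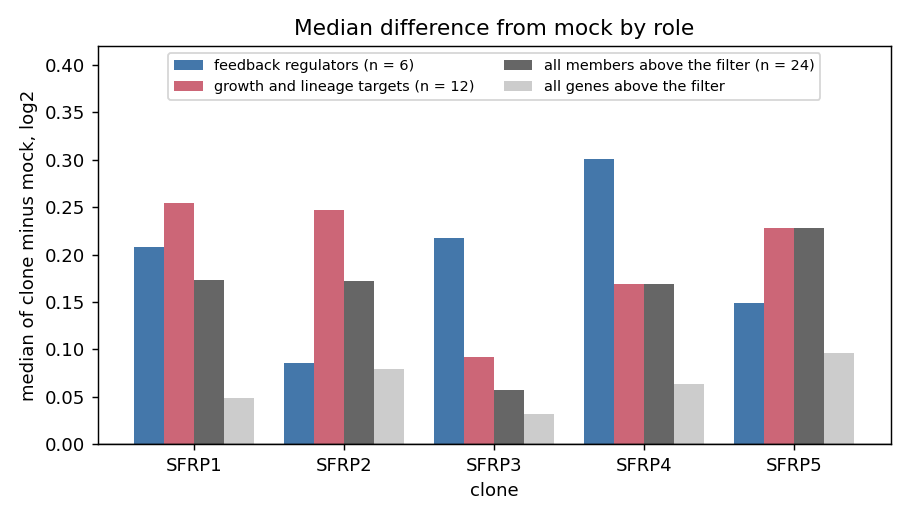
Median difference from mock, in log2 units, over the 6 measured feedback regulators, the 12 measured growth and lineage targets, all 24 measured members and all genes above the filter, for each clone. Medians have no error bars because each clone is 1 array; all lie between 0.03 and 0.30.

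As a set, the 5 SFRP clones were compared with the mock array by limma across 11954 genes. No member passed: 0 of 24 had an adjusted p under 0.05 (0.0418% of all genes did), and every member's adjusted p was 0.9998. At an unadjusted p under 0.05 limma gave 3 members (12.5%, against 2.18% of all genes): L1CAM, with a mean difference of 1.52 ± 0.68 (SD, n = 5 clones; limma unadjusted p = 0.0331), LBH, with 1.39 ± 0.66 (unadjusted p = 0.0427), and PPARD, with 0.97 ± 0.37 (unadjusted p = 0.0452). The clones that give this spread are named for different SFRP genes, and the fit takes mock, with its 1 array, to vary as they do.

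Mock lay below all 5 clones for 5 of the 24 members (20.8%, against 14.5% of all genes), namely L1CAM, LBH, PPARD, ENC1 and RNF43. It lay above all 5 for ZNRF3 and TNFRSF19 (8.33%, against 8.51% of all genes), of which ZNRF3 did not on its other probe. With 24 members the first share was near the background and the second at it, so neither is a result about the members. RNF43 and L1CAM read under the filter's threshold in mock (285 and 352) and passed it through clone arrays. Among 9 blood and endothelial markers, 8 had a probe and their summed intensity was 3518 to 4795 in the clones and 7317 in mock. The difference lay in PECAM1, at 527 to 718 in the clones and 4134 in mock, while PTPRC was below the 10th percentile of every array. Its part in the members' values was not tested.

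Other genes of the pathway were counted from lists that were chosen with earlier results of these data known. The list of other reported Wnt targets holds 43 symbols, of which HEF1 is an older name of the member NEDD9. LEF1 and TCF7 are also on the list of nuclear transducers below. Of the 43 symbols 40 had a probe and 28 were measured. At least 2-fold higher than mock were 5 (SFRP1), 5 (SFRP2), 3 (SFRP3), 11 (SFRP4) and 6 (SFRP5), and lower were 2, 3, 1, 4 and 2. The shares of all measured genes were 4.41%, 2.80%, 3.73%, 5.97% and 5.98% higher and 4.33%, 3.89%, 3.15%, 7.51% and 6.53% lower, in the same order. None of the 28 passed limma for the set of clones (0.0418% of all genes did), and 2 had an unadjusted p under 0.05 (2.18% of all genes). The largest mean differences belonged to FN1 (fibronectin), DKK1 (a secreted Wnt antagonist), ABCB1 (a drug efflux pump) and SOX4 (a transcription factor). DKK1 read 679 (SFRP1), 301 (SFRP2), 146 (SFRP3), 426 (SFRP4), 2010 (SFRP5) and 94.9 in mock, so it was highest in SFRP5 and all clones lay above mock. FN1 read 45611 (SFRP1), 4774 (SFRP2), 122894 (SFRP3), 67437 (SFRP4), 20460.0 (SFRP5) and 204995 in mock, with every clone below mock and SFRP2 the lowest. SOX4 was low in SFRP1 (-2.44), SFRP2 (-2.64) and SFRP5 (-2.72) and near mock in SFRP3 and SFRP4. ABCB1 read 349, 248, 882, 989 and 1453 in SFRP1 to SFRP5 and 203 in mock, so SFRP5, SFRP4 and SFRP3 were more than 2-fold higher. It passed the filter through these arrays alone, and DKK1 passed through SFRP1 and SFRP5 alone. The DKK1 reading in mock was near that array's 10th percentile of 69.5.

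Of 19 nuclear transducers, all measured, between 0 and 2 were 2-fold higher and between 0 and 2 lower in any clone, where 2.80% to 5.98% of all measured genes were higher and 3.15% to 7.51% lower. At that background the counts are no result about the list. TLE2, a corepressor that binds TCF factors, read 604 (SFRP1), 485 (SFRP2), 515 (SFRP3), 2408 (SFRP4), 412 (SFRP5) and 2461 in mock, so SFRP4 lay at mock and the other clones more than 2-fold under it. Its relative TLE4 read 91.0, 877, 356, 998 and 659.7 in SFRP1 to SFRP5 and 280.1 in mock, lowest in SFRP1, where it lay at the 10th percentile. LEF1, a DNA-binding partner of beta-catenin and itself a target, differed by -0.91 in SFRP2 to 0.21 in SFRP3. Of 10 measured genes of the destruction complex and its regulators, AXIN1 was 2-fold higher in SFRP5 (1.19), DVL1 in SFRP1 (1.18) and DVL2 in SFRP4 (1.04), and none was 2-fold lower in any clone. With 10 genes and 4.41% to 5.98% of all genes higher in those clones, 1 gene in a clone is near the background. No gene of these 2 lists had an unadjusted limma p under 0.05, against 2.18% of all genes.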

How the data were processed

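Total RNA was extracted with Trizol, amplified and labelled with Cy5, per the labels' protocols, and hybridised to one-colour arrays. The deposited table, made by the authors, holds linear intensity values for 31741 probes. Below 2000, 100% of each array's distinct values were whole numbers times 1 factor (0.795 to 1.37), within 0.05. How the scans were quantified, corrected and scaled is not stated in the labels. Array medians were 599.6 to 689.0, and 22 values on the SFRP4 array were below 0.

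The values were kept as scaled by the authors. Values below 0 were set to 0, 1 was added and log2 was taken. Of the probes, 24740 carry 1 symbol in the platform annotation and were used, 977 carry several and 6024 carry none. Groups came from the sample titles. Differences from mock were counted past 2-fold with no test. The 5 clones were compared with mock in limma 3.58.1 (R 4.3.3) by a two-sided moderated test with 4 residual degrees of freedom and p-values adjusted by Benjamini-Hochberg over all measured genes, after a test on simulated data. All members are named, and from each further list up to 4 genes with the largest mean difference. Members, lists and roles were chosen with earlier results of these data known, so no list is independent support.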

Additional observations from a re-analysis of the deposited data

How the results depend on the processing

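The 29 member differences of at least 2-fold kept their direction under every other scaling, filter, floor, pseudocount and probe rule in which they could be computed (27 of them with the stricter filter), and between 26 and 29 stayed at least 2-fold. Medians were less stable. Under median centring the members' median was 0.0523 (SFRP1), 0.0654 (SFRP2), 0.0486 (SFRP4) and 0.0274 (SFRP5). The median over all genes was then -0.07, -0.03, -0.06 and -0.11 in these clones, so centring lowered members and all genes alike. Under quantile normalisation it was 0.0318 (SFRP4) and 0.15 (SFRP5), without a filter -0.00927 (SFRP3), with the stricter filter 0.0504 (SFRP4), and with all probes averaged 0.15 (SFRP5). Feedback minus growth and lineage targets became 0.27 under quantile normalisation (SFRP4), 0.17 (SFRP1), -0.37 (SFRP2) and -0.39 (SFRP5) without a filter, and -0.22 (SFRP3) and -0.48 (SFRP5) with the stricter filter. At a 1.5-fold threshold 12 of 24 members were counted in SFRP1 (against 25.3% of all genes) and 12 in SFRP4 (33.9%). In SFRP2 7 were counted (20.4%), in SFRP3 6 (19.7%) and in SFRP5 10 (36.1%), and for 24 genes these 3 counts are near the background. Limma called 5 genes of the table, and 2 with the stricter filter or with a mean-variance trend. Without SFRP2 or SFRP3 it called 3, without SFRP5 2, and over all clones left out in turn 2 to 6. It called 0 members under every alternative, with an adjusted p of at least 0.9994. Small mean differences that changed sign, none of them called, were BTRC with probes averaged (0.0579), and CCND1 (-0.0198) and NEDD9 (-0.0286) under median centring. Centring shifts every gene of a clone by the same amount, so the direction of the small CCND1 and NEDD9 means depends on the scaling. Without 1 clone in turn BTRC ranged from -0.16 to 0.0848, CCND1 from -0.11 to 0.33, MET from -0.24 to 0.0212, MITF from -0.13 to 0.11 and NEDD9 from -0.0852 to 0.27. The cause of the other changes was not tested. No paired analysis was possible because each population has 1 array and all carry the same replicate number. Dim probes limit AXIN2, LGR5 and the secreted ligands.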

Other observations

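Each measured member was counted, on its brightest probe, by the array on which it was highest. SFRP3 and SFRP5 held 6 members each, SFRP1 and SFRP4 4 each, and SFRP2 and mock 2 each. Over all genes the shares were 14.4% for SFRP3, 24.6% for SFRP5, 16.8% for SFRP1, 23.7% for SFRP4, 12.0% for SFRP2 and 8.51% for mock. Members highest in SFRP3 were BTRC, the lineage genes LBH, MSX1 and MITF, and NRCAM and TIAM1. Members highest in SFRP5 were NKD1, NKD2, CCND2, CDX1, MSX2 and NEDD9. On the same probes the SFRP4 array was the lowest for 6 members, namely MYC, CCND1, MET, MSX1, MSX2 and NEDD9, and the lowest for 23.1% of all genes.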
